A study of Homo sapiens with 33 samples.

Results

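Transcripts of 7 genes that restrain the kinase mTOR were followed in THP-1 cells, a line established from a human monocytic leukaemia, under all-trans retinoic acid (RA) and tumor necrosis factor (TNF). The genes are DDIT4, DDIT4L, SESN1, SESN3, DEPTOR, TSC1 and TSC2. They make up 7 of the 19775 genes measured by a probe set with a single gene symbol, and 15 of the 54675 probe sets of the Affymetrix HG-U133 Plus 2 array belong to them. The 7 genes were selected by name, with their fold changes in these same comparisons known. Their values and calls are therefore a description, and no p-value is printed for them.

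Each of the 33 arrays carried total RNA from 1 culture well, and wells of a group were separate cultures of the same line. At the 40 h harvest there were 6 wells with the 0.1% ethanol vehicle, 5 with RA, 5 with TNF and 5 with RA plus TNF. RA was given at 20 nM and renewed once after 16 h, and TNF was given at 5 ng per ml for the last 24 h. Earlier RA harvests came from 2 wells (2 h), 2 wells (6 h) and 3 wells (16 h). Another 5 vehicle wells, titled as time 0, were harvested at 16 h according to their treatment notes. THP-1 is a single leukaemia line, so the groups hold no normal monocytes and no second line.

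mTOR is a kinase that promotes protein synthesis and cell growth and holds back autophagy when growth factors and amino acids are plentiful. The products of TSC1 and TSC2 form a complex that switches off RHEB, the small GTPase that activates mTOR complex 1. DDIT4 (also called REDD1) and its paralog DDIT4L (REDD2) are stress-induced proteins that lower mTOR complex 1 activity through the TSC complex, while sestrins act on amino acid sensing at the lysosome and DEPTOR binds the mTOR complexes themselves. A transcript level of these genes does not measure the activity of the kinase.

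The values are log2 signals relative to the median signal of the same array, so a value of 0 is the median probe set. A gene was called when its Benjamini-Hochberg adjusted p in a limma fit across all genes was under 0.05. Recovered array medians lay between 18.9 and 45.2 signal units, and 13 to 2964 probe sets per array lay at the lowest signal of 1 unit. The arrays fall into 2 runs of record numbers, array set 1 (12 arrays, all from the 40 h harvest) and array set 2 (21 arrays of all 8 groups). The log2 ratio of the 3' to the 5' ACTB control probe set, a sign of RNA or labelling quality, was 1.314 ± 0.325 (SD, n = 12) in array set 1 and 0.507 ± 0.284 (SD, n = 21) in array set 2. Markers fitted a myeloid line in part: LYZ, CD4 and SPI1 averaged 2338, 733 and 503 units, whereas FCGR1A and MPO averaged 22.2 and 31.7. The 12 measured markers of lymphoid, erythroid, epithelial and fibroblast cells averaged between 11.2 (EPCAM) and 79.8 units (COL1A1). Because arrays were centred, a change in total RNA per cell is not seen, and fewer cells of a type and less RNA per cell cannot be told apart.

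DDIT4 was measured by 1 probe set and DDIT4L by 1. DDIT4 lies on chromosome 10 (72273924 to 72276036, RefSeq on GRCh38.p14) and DDIT4L on chromosome 4 (100185870 to 100190468). The 250 bases before each start are shown because the transcripts of these paralogs were called together after 6 h and 40 h of RA in array set 2 and after TNF. Capitals mark matches, on either strand, to 4 of the 5 short motifs searched. ACGTG is the core of the hypoxia response element. CCAAT is the box bound by the NF-Y factor. TATAAA is the TATA box, and the GC box is spelled GGGCGG. The fifth was AGGTCA, the half-site of retinoic acid receptors, and no matches overlapped another.
DDIT4 chr10:72273674-72273923 (+): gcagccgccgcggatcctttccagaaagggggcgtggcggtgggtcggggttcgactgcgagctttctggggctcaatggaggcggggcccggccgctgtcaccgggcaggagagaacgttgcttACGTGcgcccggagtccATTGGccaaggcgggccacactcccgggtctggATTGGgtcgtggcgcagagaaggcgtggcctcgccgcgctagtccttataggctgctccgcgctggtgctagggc
DDIT4L chr4:100190469-100190718 (-): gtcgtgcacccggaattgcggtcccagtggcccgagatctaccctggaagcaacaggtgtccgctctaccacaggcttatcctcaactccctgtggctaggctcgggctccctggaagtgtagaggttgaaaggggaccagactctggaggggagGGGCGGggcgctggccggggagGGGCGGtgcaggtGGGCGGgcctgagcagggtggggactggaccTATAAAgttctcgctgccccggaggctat
The 2 windows shared none of these motifs. The DDIT4 window held 1 match to ACGTG, starting 125 bases before the gene's start, and 2 to CCAAT, starting 108 and 75 bases before it. The DDIT4L window held 1 match to TATAAA, starting 29 bases before the start, and 3 to GGGCGG, starting 95, 73 and 60 bases before it. Of 35116 RefSeq windows of this length, 18.5% held ACGTG, 32.0% CCAAT, 10.7% TATAAA and 42.6% GGGCGG. The receptor half-site AGGTCA was in neither window and in 12.1% of all. A direct repeat of it with 5 bases between was in neither window and in 1 of all. These are matches of letters and not measured binding sites.

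DDIT4 was higher than in the vehicle wells at every time point of RA in array set 2. No vehicle well was harvested at 2 h or 6 h. For every gene, RA and harvest time therefore cannot be told apart at those 2 times. The 8 vehicle wells of the time course lay between 2.40 and 3.38 in log2 signal: 3.38, 3.02, 2.48, 3.00 and 2.40 at 16 h, and 2.95, 3.06 and 2.65 at 40 h. DDIT4 read 4.86 and 5.20 after 2 h of RA, 5.04 and 5.73 after 6 h, 4.08, 4.12 and 4.38 after 16 h, and 4.49 and 4.95 after 40 h. No RA well overlapped a vehicle well. DDIT4 was 4.48-fold higher after 2 h (log2 2.16 ± 0.23, SE), 5.70-fold after 6 h (2.51 ± 0.23), 2.51-fold after 16 h (1.33 ± 0.20) and 3.60-fold after 40 h (1.85 ± 0.23), and DDIT4 was called at all 4 times. The median of all genes tested was itself shifted, by 0.31, 0.38, -0.17 and 0.15 in order of time. Relative to that median, the log2 changes of DDIT4 were 1.85, 2.13, 1.49 and 1.70. Array medians also moved with time: they averaged 23.3 units at 2 h, 22.2 at 6 h and 29.4 in the 16 h vehicle wells. The log2 ACTB 3' to 5' ratio averaged 0.22 after 2 h, 0.21 after 6 h, 0.77 after 16 h and 0.53 after 40 h of RA, and 0.43 and 0.72 in the 16 h and 40 h vehicle wells. Its part in the changes was not tested. With signals that were not centred on the array median, DDIT4 changes were 1.83, 2.10, 1.47 and 1.69, and DDIT4 was called at each time.

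**Figure D1:**
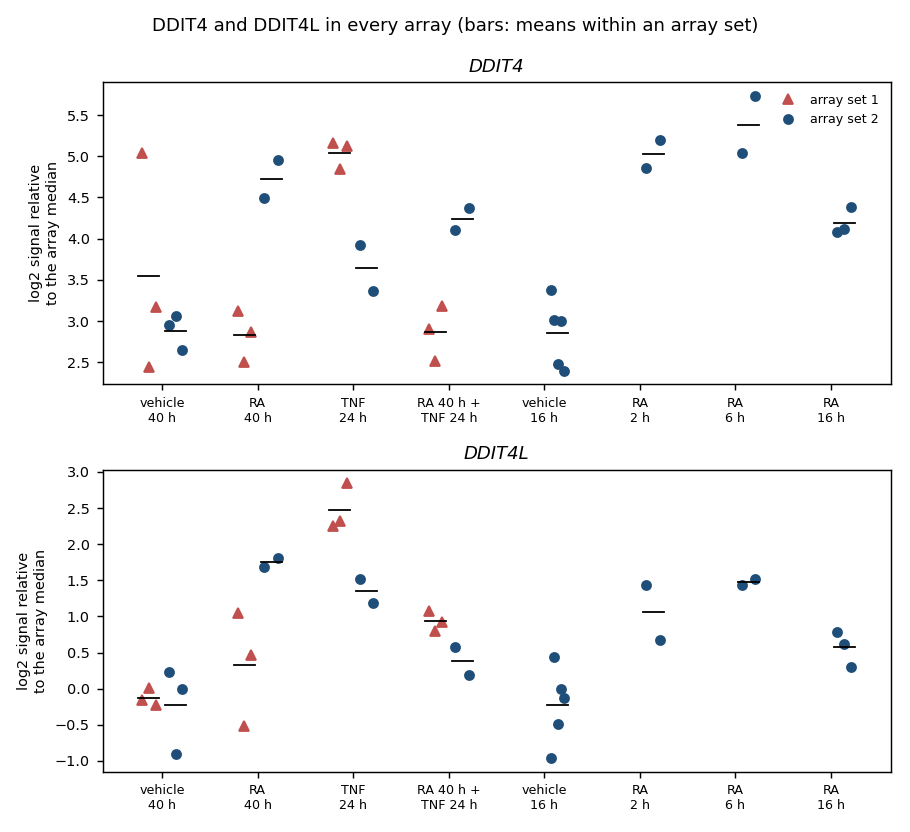
Log2 signal of DDIT4 (top) and DDIT4L (bottom) relative to the array median, in every well of the 8 groups; triangles are array set 1, circles array set 2, and bars the means within a set. In array set 2 the DDIT4 values of all RA groups lie above the vehicle wells, while in array set 1 only the 3 TNF wells and 1 vehicle well (5.04) lie above 3.2.

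In the time course 1 of the 7 genes was called at 2 h, where 0.864% of 12503 genes were (0.84% upward, 0.024% downward). DDIT4L joined DDIT4 at 6 h, which made 2 of 7 against 8.38% of all genes (8.21% upward, 0.176% downward). At 16 h the 2 called were DDIT4, upward, and DEPTOR, downward, against 7.02% of all genes (2.36% upward, 4.66% downward). At 40 h they were DDIT4 and DDIT4L, upward, and DEPTOR, downward, 3 of 7 against 5.13% (4.45% upward, 0.672% downward). Quantile normalization removed the shift of the median and gave another split of all calls: 78 genes upward and 27 downward at 2 h in place of 105 and 3, 300 and 173 at 6 h in place of 1026 and 22, 736 and 819 at 16 h in place of 295 and 583, and 684 and 640 at 40 h in place of 557 and 84.

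DDIT4L was dim and its RA response less regular. Its vehicle wells averaged 25.8 units at 16 h and 27.1 at 40 h in set 2, near the array median and within the 11.2 to 79.8 units of the markers of other cell types. The RA wells averaged 50.6 units at 2 h, 61.6 at 6 h and 48.9 at 16 h, also within that range, and 88.3 at 40 h. DDIT4L was not shown to be above background in vehicle or at 2, 6 or 16 h of RA. Its fold changes against vehicle therefore hold on the deposited scale only. Their size is uncertain, and the 40 h change may understate the difference. The 8 vehicle wells ran from -0.96 to 0.44: -0.96, 0.44, -0.49, 0.00 and -0.13 at 16 h, and 0.23, -0.90 and 0.00 at 40 h. After RA it read 1.44 and 0.67 at 2 h, 1.43 and 1.52 at 6 h, 0.79, 0.62 and 0.30 at 16 h, and 1.69 and 1.81 at 40 h. One 16 h well lay within the vehicle range, and all other RA wells lay above it. DDIT4L was 3.26-fold higher at 6 h (log2 1.70 ± 0.48, SE) and 3.93-fold higher at 40 h (1.98 ± 0.48), the 2 times at which it was called. Its log2 changes were 1.28 ± 0.48 at 2 h and 0.80 ± 0.41 at 16 h, where it was not called. Relative to the median of all genes the 4 changes were 0.97, 1.32, 0.96 and 1.83. Both calls ended when either RA well of that time was left out. The 6 h call also ended under quantile normalization (1.51) and with signals not centred (1.29).

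**Figure D2:**
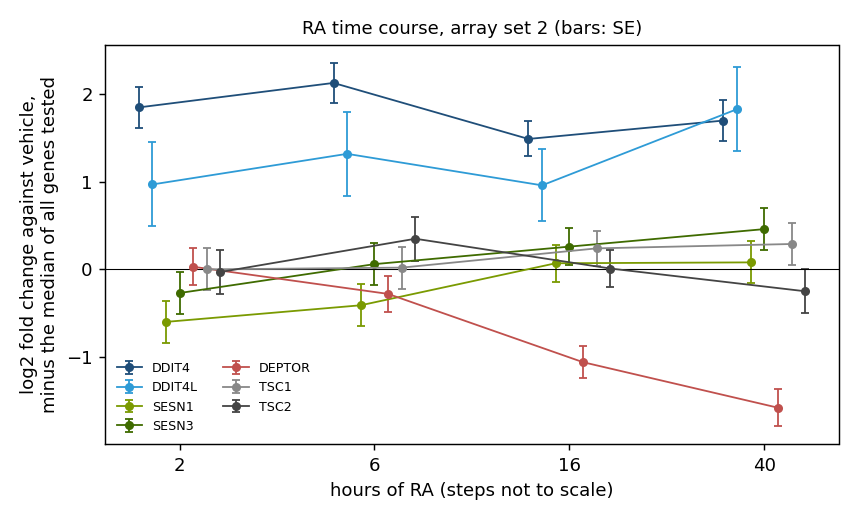
Log2 fold change of the 7 genes against 8 vehicle wells at 2, 6, 16 and 40 h of RA in array set 2, after subtraction of the median over all genes tested; bars are standard errors and the time axis is not to scale. DDIT4 stays between 1.49 and 2.13, and DEPTOR goes from 0.03 at 2 h to -1.58 at 40 h.

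At the 40 h harvest the response of DDIT4 to RA differed in direction between the array sets. In array set 1 the vehicle wells read 5.04, 2.45 and 3.17 and the RA wells 3.12, 2.50 and 2.87, which overlap. In array set 2 the vehicle wells read 2.95, 3.06 and 2.65 and the RA wells 4.49 and 4.95, which are apart. The fit over both sets gave a log2 change of 0.39 ± 0.40 (SE), and DDIT4 was not called. Within array set 1 the change was -0.72 ± 0.36, not called, and within array set 2 it was 1.83 ± 0.23, called. Without the vehicle well at 5.04, array set 1 gave 0.02 ± 0.30. The difference between the sets was not tested, and the part of RNA quality in it was not tested either.

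TNF went with higher DDIT4 and DDIT4L in each array set. DDIT4 read 5.16, 4.84 and 5.13 in the TNF wells of array set 1 and 3.92 and 3.37 in those of array set 2. It was 2.44-fold higher than in vehicle (log2 1.29 ± 0.40, SE) and called, with 1.49 ± 0.36 within set 1 and 0.75 ± 0.23 within set 2. In set 1 the vehicle well at 5.04 lay among the TNF wells, and without it the set 1 change was 2.24 ± 0.30. The call over both sets ended in 7 of 11 fits that left out 1 well (range 1.09 to 1.72): without vehicle replicate 2, 4, 5 or 6, or TNF replicate 1, 2 or 3. DDIT4L read 2.25, 2.32 and 2.84 in the TNF wells of set 1 and 1.52 and 1.19 in those of set 2. The vehicle wells read -0.16, 0.01 and -0.22 in set 1 and 0.23, -0.90 and 0.00 in set 2. Every TNF well lay above every vehicle well, and DDIT4L was 4.56-fold higher (2.19 ± 0.39), with 2.59 ± 0.48 and 1.58 ± 0.53 within the sets. It was called in all 11 fits that left out 1 well, and within set 1 but not within set 2.

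With RA and TNF together neither paralog was called against vehicle in the fit over both sets. DDIT4 read 2.91, 2.52 and 3.19 in set 1 and 4.10 and 4.37 in set 2, a log2 change from vehicle of 0.22 ± 0.40 (SE) that split into -0.68 ± 0.36 in set 1, not called, and 1.35 ± 0.23 in set 2, called. Against TNF alone DDIT4 changed by -1.06 ± 0.42, not called, with -2.17 ± 0.36 in set 1, called, and 0.59 ± 0.26 in set 2, not called. The log2 ACTB 3' to 5' ratio in set 1 averaged 0.989 ± 0.072 (SD, n = 3) with both agents, 1.396 ± 0.059 with TNF, 1.426 ± 0.434 with RA and 1.445 ± 0.416 in vehicle. In set 2 it averaged 0.494 with both agents and 0.532 with TNF, and its part in these changes and in those of the other genes below was not tested. In DDIT4 signal the set 1 wells with both agents lay below the TNF wells of that set, and the set 2 wells above those of set 2. DDIT4L read 1.08, 0.80 and 0.92 in set 1 and 0.58 and 0.19 in set 2. It was 0.88 ± 0.39 above vehicle and 1.31 ± 0.41 below TNF alone on the log2 scale (2.47-fold lower), and the second difference was called. Within the sets DDIT4L changed from TNF by -1.53 ± 0.48 and -0.97 ± 0.58, neither called, and every well with both agents read below every TNF well. The call ended without any 1 of 8 of these 10 wells (range -1.52 to -1.10).

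The interaction is the RA change under TNF minus the RA change without TNF. For DDIT4L, RA alone went with a log2 change of 1.06 ± 0.39 (SE), not called. Between wells with TNF, RA went with a change of -1.31 ± 0.41, called, which gives an interaction of -2.37 ± 0.57. Within the sets the change with RA alone was 0.45 ± 0.48 in set 1, not called, and 1.97 ± 0.53 in set 2, called. RA-only wells of DDIT4L read 1.05, -0.52 and 0.46 in set 1 and 1.69 and 1.81 in set 2, so replicate 2 lay below all but 1 of the vehicle wells. DDIT4L was 1 of the 7 genes called for the interaction, and 0.428% of 12393 genes were called (0.266% upward, 0.161% downward). DDIT4L averaged 34.3 and 27.1 units in the vehicle wells of sets 1 and 2, and 64.8 and 37.5 with both agents. With RA alone it averaged 52.3 units in set 1 and 88.3 in set 2, and with TNF alone 207.2 and 71.4. All of these but 88.3 and 207.2 lie within the 11.2 to 79.8 units of the markers of other cell types. Those within that range were not shown to be above background. The size of its interaction therefore holds on the deposited scale only, and additivity of the agents cannot be read from it. The interaction was negative within each set, -1.99 ± 0.67 and -2.94 ± 0.79, and called in neither. Leaving out 1 well gave -2.73 to -2.09 and ended the call in 17 of 21 fits. DDIT4 had an interaction of -1.45 ± 0.58, not called, with -1.45 ± 0.52 and -1.24 ± 0.35 within the sets, called in neither. Without the vehicle well at 5.04 the set 1 interaction of DDIT4 was -2.19 ± 0.40 and called, while that of DDIT4L was -1.97 ± 0.69 and not called.

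**Figure D3:**
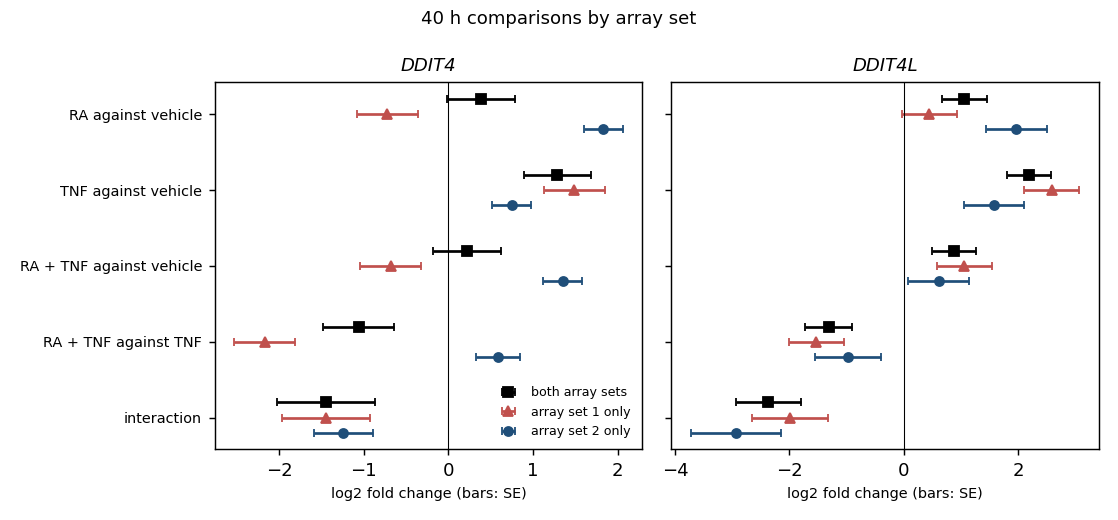
Log2 fold changes of DDIT4 and DDIT4L in 4 comparisons of the 40 h harvest and the interaction; squares are the fit over both array sets, triangles set 1 alone, circles set 2 alone, and bars standard errors. The RA change of DDIT4 is -0.72 in set 1 and 1.83 in set 2, while the interaction lies below 0 in each set for both genes.

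In array set 2, which holds all 8 groups, DDIT4 was lowest in the vehicle wells (means 2.86 at 16 h and 2.89 at 40 h) followed by TNF (3.64), RA 16 h (4.19), RA plus TNF (4.23), RA 40 h (4.72), RA 2 h (5.03) and RA 6 h (5.38). Wells overlapped between the 2 vehicle groups, between RA 16 h and RA plus TNF, and between neighbours among RA 40 h, 2 h and 6 h. The TNF wells were apart from the 40 h vehicle wells, but 1 of them (3.37) lay below a 16 h vehicle well (3.38). DDIT4L ran from -0.23 and -0.22 in vehicle through RA plus TNF (0.38), RA 16 h (0.57), RA 2 h (1.06), TNF (1.36) and RA 6 h (1.48) to RA 40 h (1.75). All its neighbours overlapped except RA 6 h and RA 40 h. Across wells DDIT4 and DDIT4L had a Pearson r of 0.706 in set 2 (n = 21) and 0.643 in set 1 (n = 12), over wells that share their groups. Among 12030 genes the 3 most like DDIT4 in set 2 were HNRNPLL (r = 0.943), STX11 (0.943) and H2AC25 (0.937), and in set 1 these had r of -0.587, -0.204 and -0.603. For DDIT4L they were ELOVL5 (0.822), TOR1B (0.818) and MINDY3 (0.815), with 0.287, 0.579 and 0.547 in set 1.

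SESN1 and SESN3, which encode 2 of the stress-inducible sestrins, were lower under TNF. SESN3 read 2.93, 4.04 and 3.12 in the vehicle wells of array set 1 and 5.00, 5.14 and 4.97 in those of set 2. With TNF it read 1.22, 1.14 and 0.58 in set 1 and 2.49 and 2.38 in set 2, below every vehicle well. It fell 5.74-fold (log2 -2.52 ± 0.24, SE), with -2.38 ± 0.32 and -2.60 ± 0.24 within the sets. With RA alone SESN3 read 4.75, 4.44 and 5.11 in set 1 and 5.21 and 5.80 in set 2, above the vehicle wells of the same set. It was 1.97-fold higher (0.98 ± 0.24) and called, with 1.40 ± 0.32 in set 1, called, and 0.47 ± 0.24 in set 2, not called.

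With both agents the mean of SESN3 lay between those of the single treatments. It read 3.02, 2.05 and 1.77 in set 1 and 2.49 and 3.34 in set 2. That was 2.93-fold below vehicle (log2 -1.55 ± 0.24, SE), 5.77-fold below RA alone (-2.53 ± 0.25) and 1.96-fold above TNF alone (0.97 ± 0.25), all called. The interaction was -0.01 ± 0.35, not called. With TNF alone SESN3 averaged 74.1 units in set 1, within the 11.2 to 79.8 units of the markers of other cell types, and 150.8 in set 2. The set 1 level was not shown to be above background. The fall with TNF there may thus be understated, and additivity cannot be read from the interaction. The RA call ended without RA replicate 3 (range over wells left out 0.82 to 1.14), and the call against TNF ended without RA plus TNF replicate 1 (0.72 to 1.17). Within set 2 the change from TNF was 0.48 ± 0.26, not called.

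SESN3 has 7 probe sets, of which 4 passed the brightness filter at 40 h and 5 in the time course. Under TNF the other 3 that passed at 40 h changed by -2.49 ± 0.52 (called), -2.26 ± 0.80 and -0.99 ± 0.61 (not called). With RA alone at 40 h they changed by 0.70 ± 0.52, 1.36 ± 0.80 and 0.14 ± 0.61 in the same order, none called. Against TNF alone, RA plus TNF gave 0.99 ± 0.54, 1.63 ± 0.83 and -1.01 ± 0.64 at those probe sets, none called, so 1 of them went the other way from the brightest. In the same order they averaged 19.4, 6.6 and 21.4 units with TNF, and 27.4, 24.2 and 14.3 with both agents. These levels were not shown to be above background. Their falls with TNF may be understated, and the directions against TNF alone are uncertain. SESN3 was called at no time of the RA course, with log2 changes of 0.04 to 0.61 at the brightest probe set. None of its other 4 probe sets that passed the filter was called in the time course, and the largest change among those was 1.81 ± 0.60 at 2 h.

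SESN1 read 3.42, 3.51 and 2.72 in the vehicle wells of set 1 and 3.69, 3.75 and 3.53 in those of set 2. With TNF it read 2.12, 1.99 and 2.30 in set 1 and 2.79 and 2.84 in set 2, below all vehicle wells of the same set. It fell 1.98-fold (log2 -0.99 ± 0.20, SE), with -1.08 ± 0.28 and -0.84 ± 0.26 within the sets, both called. With RA plus TNF it read 2.72, 2.28 and 2.76 in set 1 and 2.09 and 3.03 in set 2, and it was 1.76-fold below vehicle (-0.81 ± 0.20) and 1.63-fold below RA alone (-0.71 ± 0.21), both called. Within the sets the change from vehicle was -0.63 ± 0.28 in set 1, not called, and -1.10 ± 0.26 in set 2, called. The change from RA was -0.40 ± 0.28 in set 1, not called, and -1.18 ± 0.28 in set 2, called. The call against RA also ended without RA replicate 5 or RA plus TNF replicate 4 (range -0.81 to -0.50). Against TNF alone the change was 0.17 ± 0.21, not called.

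RA alone left SESN1 uncalled at 40 h (log2 -0.10 ± 0.20, SE), with wells at 3.12, 2.98 and 2.86 in set 1 and 3.51 and 3.97 in set 2. In the time course its changes were -0.29 ± 0.24, -0.03 ± 0.24, -0.10 ± 0.21 and 0.23 ± 0.24, none called. At 2 h SESN1 read 3.09 and 3.35 against 2.84 to 3.75 in the 8 vehicle wells, which overlap. The 2 h change was called only where the shift of the median was taken out, at -0.64 ± 0.15 with quantile normalization and -0.63 ± 0.15 with signals not centred. SESN1 and SESN3 had an r of 0.838 over the 21 wells of set 2 and 0.732 over the 12 of set 1. The genes most like SESN3 in set 2 were CXCR2 (0.938), CACNA2D3 (0.937) and DACH1 (0.918), with 0.800, 0.899 and 0.800 in set 1. For SESN1 they were AFF1 (0.884), FIGN (0.859) and RXFP1 (0.854), with 0.766, 0.626 and 0.311.

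DEPTOR, whose product binds mTOR and lowers the activity of its complexes, was lower with either agent and lowest with both. Vehicle wells read 3.72, 3.41 and 2.78 in set 1 and 3.52, 4.07 and 3.73 in set 2. RA wells read 2.78, 2.07 and 2.09 in set 1 and 2.39 and 2.60 in set 2, and TNF wells 1.55, 1.84 and 1.58 in set 1 and 2.35 and 2.31 in set 2. Wells with both agents read 0.41, -0.12 and -0.48 in set 1 and 1.43 and 0.84 in set 2, below every well of the other groups. DEPTOR was 2.13-fold lower with RA (log2 -1.09 ± 0.24, SE), 2.93-fold lower with TNF (-1.55 ± 0.24) and 8.35-fold lower with both (-3.06 ± 0.24). It was also 2.85-fold lower with both than with TNF (-1.51 ± 0.25) and 3.92-fold lower than with RA (-1.97 ± 0.25). All 5 were called, and each stayed called in every fit that left out 1 well.

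Within the array sets DEPTOR changed in the same direction in each of these 5 comparisons. With RA the change was -0.99 ± 0.35 (SE) in set 1, not called, and -1.28 ± 0.27 in set 2, called; with both agents it was -3.37 ± 0.35 and -2.64 ± 0.27, both called. The interaction was -0.42 ± 0.34, not called, with -0.73 ± 0.50 and 0.09 ± 0.40 within the sets. The wells with both agents averaged 32.9 units in set 1 and 64.0 in set 2, within the 11.2 to 79.8 units of the markers of other cell types. They were not shown to be above background, so the changes with both agents may understate the difference, and additivity of the 2 agents cannot be read from the interaction.

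**Figure D4:**
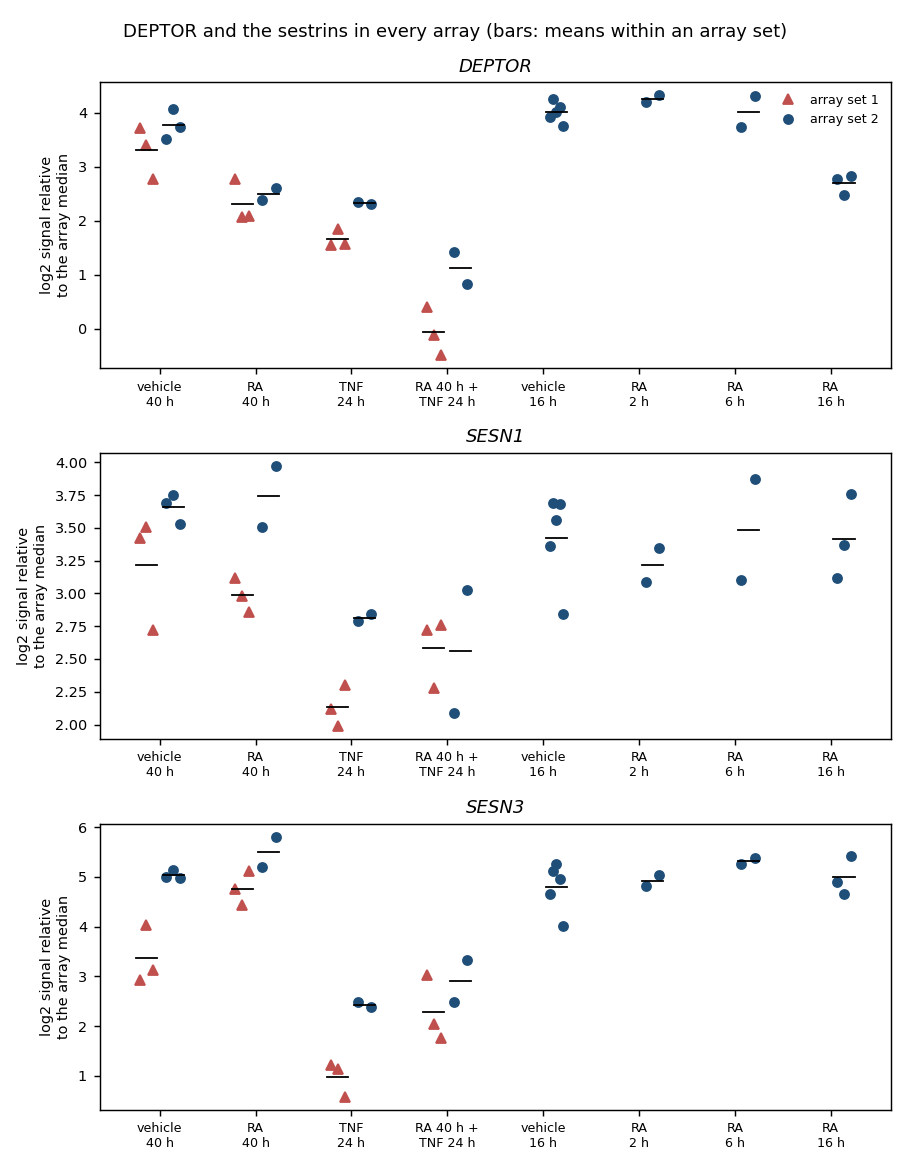
Log2 signal of DEPTOR, SESN1 and SESN3 relative to the array median in every well of the 8 groups; triangles are array set 1, circles array set 2, and bars the means within a set. DEPTOR is lowest with RA plus TNF (-0.48 to 1.43), and SESN3 is lowest with TNF alone (0.58 to 2.49).

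The lower level of DEPTOR under RA appeared between 6 h and 16 h. In the 8 vehicle wells of the time course it lay between 3.52 and 4.25. It read 4.19 and 4.32 at 2 h and 3.73 and 4.30 at 6 h, which overlap the vehicle wells, then 2.78, 2.47 and 2.83 at 16 h and 2.39 and 2.60 at 40 h, which do not. The log2 changes were 0.34 ± 0.21 (SE) and 0.10 ± 0.21 at 2 h and 6 h, not called, and -1.23 ± 0.18 and -1.43 ± 0.21 at 16 h and 40 h, called. Relative to the median of all genes they were 0.03, -0.28, -1.06 and -1.58. The late levels at 16 h and 40 h overlapped each other. In set 2 the genes most like DEPTOR were CDKN3 (r = 0.961), CCDC26 (0.959) and STRBP (0.952), with -0.082, 0.782 and 0.863 in set 1. Its other probe set did not pass the brightness filter.

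TSC1 and TSC2, the 2 partners in the complex through which DDIT4 acts, were called in none of the 10 comparisons. TSC1 changed by 0.04 ± 0.19 (SE) with TNF, 0.31 ± 0.19 with RA at 40 h and 0.22 ± 0.19 with both, and by 0.07 to 0.44 over the time course. TSC2 changed by 0.08 ± 0.18 with TNF, -0.05 ± 0.18 with RA at 40 h and -0.15 ± 0.18 with both. Its largest change was 0.73 ± 0.25 at 6 h, where 1 well read 3.20, within the vehicle range of 2.67 to 3.52, and the other 4.20. That change was called without RA 6 h replicate 1, vehicle 16 h replicate 2 or vehicle 16 h replicate 4 (range 0.23 to 1.23). The second probe set of TSC2 did not pass the brightness filter.

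**Figure D5:**
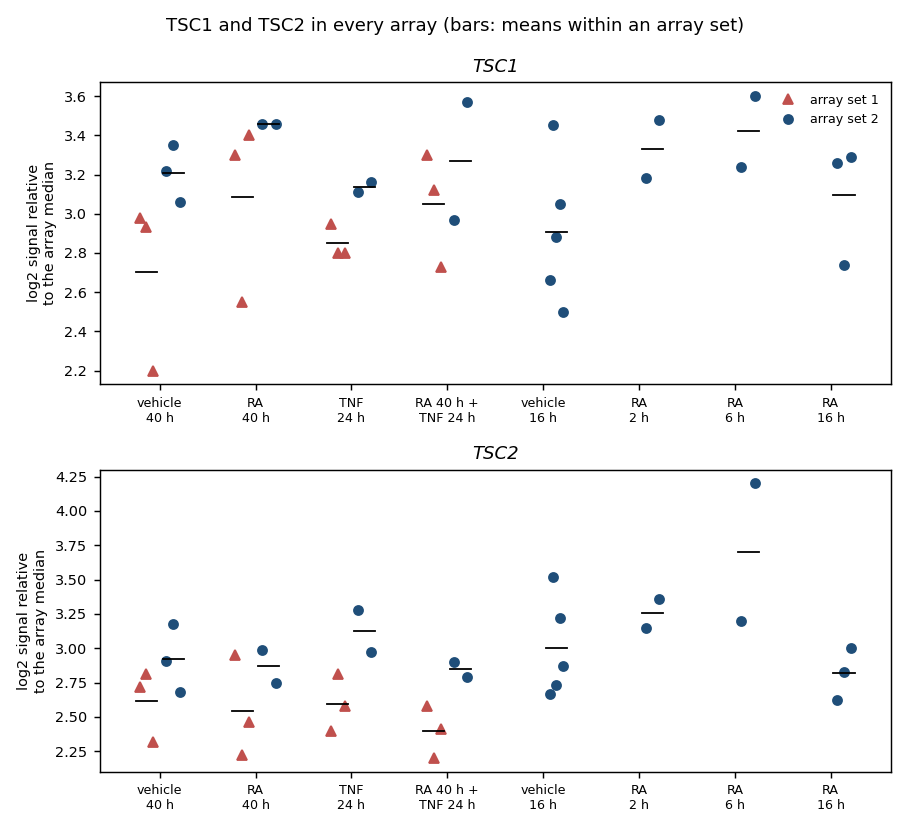
Log2 signal of TSC1 and TSC2 relative to the array median in every well of the 8 groups; triangles are array set 1, circles array set 2, and bars the means within a set. Apart from the TSC2 well at 4.20 after 6 h of RA, all wells lie between 2.20 and 3.60.

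At the 40 h harvest 2 of the 7 genes were called with RA (SESN3 upward, DEPTOR downward), against 4.14% of 12393 genes (2.77% upward, 1.37% downward). With TNF 5 were called (DDIT4 and DDIT4L upward, SESN1, SESN3 and DEPTOR downward), against 11.3% (6.69% upward, 4.62% downward). With RA plus TNF 3 were called, SESN1, SESN3 and DEPTOR, all downward, against 19.1% (11.7% upward, 7.42% downward). RA plus TNF differed from TNF at 3 (SESN3 upward, DDIT4L and DEPTOR downward), against 7.29% (4.6% upward, 2.69% downward). It differed from RA at 3, SESN1, SESN3 and DEPTOR, all downward, against 12.2% (7.63% upward, 4.55% downward). These comparisons share wells, and the genes were chosen with them known. Quantile normalization split all calls otherwise: with RA 509 genes upward and 551 downward in place of 343 and 170, with TNF 1139 and 1406 in place of 829 and 572, and with both 1498 and 1887 in place of 1445 and 919. For RA plus TNF it gave 807 and 767 against TNF in place of 570 and 333, and 1167 and 1179 against RA in place of 946 and 564.

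Other genes were taken from 9 lists, of which 96 genes were tested at 40 h and 98 in the time course. Some lists cover the mTOR pathway: complex subunits, amino acid sensing at the lysosome, growth factor input, AMPK and LKB1, and effectors. The others hold factors that act on DDIT4 or sestrin genes, and target genes of p53, hypoxia and glucocorticoids. Counts of pathway genes, here and below, are over all 9 lists together and not over the mTOR pathway alone. With TNF 10 of 96 rose and 5 fell (15.6%; 11.3% of all genes), and with RA at 40 h 4 rose and 0 fell (4.17%; 4.14% of all genes). With both agents 13 rose and 6 fell (19.8%; 19.1% of all genes). RA plus TNF was higher than TNF at 7 and lower at 3 (10.4%; 7.29% of all genes), and higher than RA at 11 and lower at 5 (16.7%; 12.2% of all genes). The interaction was called for 1 (1.04%; 0.428% of all genes). In the time course 2 rose after 2 h (2.04%; 0.864% of all genes), 13 after 6 h (13.3%; 8.38% of all genes) and 6 after 40 h (6.12%; 5.13% of all genes) with 0 that fell. After 16 h 3 rose and 1 fell (4.08%; 7.02% of all genes). With quantile normalization 6 were called after 6 h, and 28 with TNF. The median log2 change of these genes was lowest at 16 h (-0.12, against -0.17 over all genes) and highest at 6 h (0.40, against 0.38). Of the 65 called changes of the 40 h harvest, 27 were not called within array set 1 alone, 26 not within set 2 alone and 11 in neither, and 23 were called in each. Of the changes named below, those not called within set 1 were MLST8, EIF4EBP1, GRB10, ATF4 and CEBPB with TNF, and PIK3CG and TFEB with RA. Those not called within set 2 were MLST8, SESN2 and EIF4EBP1 against TNF, EIF4B with TNF, INSR with both agents and the interaction of EPAS1. PRKAB1 and NR3C1 with TNF were called within neither.

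Among the core subunits 1 of 10 was called in any comparison. Of all genes 11.3% were called with TNF and 7.29% with RA plus TNF against TNF. MLST8, a subunit of both mTOR complexes, rose with TNF (log2 1.16 ± 0.29, SE; adjusted p = 0.00512) and was lower with RA plus TNF than with TNF (-1.11 ± 0.30; adjusted p = 0.0149). The second call ended without RA plus TNF replicate 3. MTOR, RPTOR and RICTOR were among the 9 that were not called. The lists' median log2 change for the subunits was between -0.26 (16 h) and 0.32 (6 h), beside -0.17 and 0.38 over all genes.

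Of 25 genes of amino acid sensing at the lysosome, SESN2 was the only one called with TNF, where 11.3% of all genes were called. This other sestrin rose by 1.39 ± 0.27 (SE; adjusted p = 0.000329), while SESN1 and SESN3 fell, and it was lower with RA plus TNF than with TNF (-1.19 ± 0.28; adjusted p = 0.00457). Within the sets that second change of SESN2 was -1.76 ± 0.30 and -0.33 ± 0.28. DEPDC5, a subunit of the GATOR1 complex that restrains mTOR complex 1, fell at 16 h of RA (-0.89 ± 0.22; adjusted p = 0.0133), a call that ended without RA 16 h replicate 1. SLC38A9, a lysosomal arginine sensor, rose at 6 h (0.94 ± 0.23; adjusted p = 0.0104), a call that ended without RA 6 h replicate 2 and under quantile normalization.

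On the growth factor side PIK3CG, the catalytic subunit of a PI3-kinase of leukocytes, rose with RA at 6 h (log2 1.32 ± 0.19, SE; adjusted p = 1.43e-05), at 16 h (0.76 ± 0.16; adjusted p = 0.00308) and at 40 h (0.69 ± 0.16; adjusted p = 0.00608). Its regulatory partner PIK3R5 rose at 6 h (1.82 ± 0.40; adjusted p = 0.00386), a call that ended without RA 6 h replicate 2. INSR (-0.89 ± 0.24; adjusted p = 0.0068) and IRS2 (-0.73 ± 0.16; adjusted p = 0.00059), the insulin receptor and its docking protein, fell with RA plus TNF. Of 9 genes of AMPK and LKB1, PRKAB1 fell with TNF (-0.73 ± 0.22, adjusted p = 0.0224), where 4.62% of all genes fell. That call ended without vehicle replicate 1 or TNF replicate 3.

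Of 13 effectors, EIF4EBP1, the translation repressor that mTOR phosphorylates, rose with TNF (log2 0.96 ± 0.23, SE; adjusted p = 0.0034) and was lower with RA plus TNF than with TNF (-1.10 ± 0.24; adjusted p = 0.00172). GRB10, an adaptor that damps insulin signalling, rose with TNF (1.54 ± 0.39, adjusted p = 0.00648). EIF4B fell with TNF (-0.65 ± 0.15, adjusted p = 0.00315). With TNF 2 of the 13 thus rose and 1 fell, where 6.69% of all genes rose and 4.62% fell. EEF2K fell with RA plus TNF against vehicle (-0.86 ± 0.17, adjusted p = 0.000153). TFEB, the transcription factor of lysosome genes that mTOR keeps in the cytoplasm, rose with RA plus TNF against vehicle (1.34 ± 0.20; adjusted p = 3.15e-06) and against TNF (1.02 ± 0.21; adjusted p = 0.000962). With RA alone at 40 h TFEB rose by 0.73 ± 0.20 (adjusted p = 0.0268), with 0.27 ± 0.26 in set 1 and 1.35 ± 0.24 in set 2, and this call ended without vehicle replicate 3 or 4 or RA replicate 4 or 5.

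Of 8 factors listed as acting on DDIT4 or sestrin genes or their products, 3 rose and 2 fell with TNF. Of all genes 6.69% rose and 4.62% fell. ATF4, the factor of the integrated stress response, rose (log2 1.06 ± 0.25, SE; adjusted p = 0.00312), as did CEBPB (0.78 ± 0.19; adjusted p = 0.00492) and NR3C1, the glucocorticoid receptor (0.55 ± 0.16; adjusted p = 0.0235). The NR3C1 call ended without vehicle replicate 3, 4 or 6 or TNF replicate 1. TXNIP, whose product binds DDIT4, fell (-1.50 ± 0.15; adjusted p = 2.09e-09), as did EPAS1, which encodes HIF-2alpha (-1.49 ± 0.17; adjusted p = 3.44e-08). With RA plus TNF both were higher than with TNF, by 0.96 ± 0.16 (adjusted p = 3.88e-05) and 1.22 ± 0.18 (adjusted p = 5.02e-06). EPAS1 was the gene of the lists called for the interaction (1.06 ± 0.25; adjusted p = 0.0375), a call that ended in 15 fits that left out 1 well. With RA, CEBPB rose at 2 h (0.86 ± 0.20; adjusted p = 0.0244) and 6 h (0.92 ± 0.20; adjusted p = 0.00363). The 2 h call ended without either 2 h well and the 6 h call without RA 6 h replicate 2.

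Of all genes 0.84% rose at 2 h of RA, 8.21% at 6 h, 2.36% at 16 h and 2.77% at 40 h. Of 6 hypoxia target genes, NDRG1 rose at every time. Its log2 changes were 1.73 ± 0.22 (SE; adjusted p = 8.74e-06) at 2 h, 2.76 ± 0.22 (adjusted p = 1.04e-10) at 6 h, 2.71 ± 0.19 (adjusted p = 4.94e-12) at 16 h and 2.78 ± 0.18 (adjusted p = 4.29e-14) in the fit of the 40 h harvest, with 2.29 and 3.40 within the array sets. VEGFA rose with TNF (2.58 ± 0.33, adjusted p = 3.16e-07) and with RA plus TNF (2.56 ± 0.33, adjusted p = 1.53e-07). It also rose with RA at 40 h in the time course (1.56 ± 0.31, adjusted p = 0.00122), a call that ended without RA replicate 5. In the fit of the 40 h harvest VEGFA was not called with RA alone. Of the p53 target genes, GDF15 (3.28 ± 0.80; adjusted p = 0.00923) and CDKN1A (1.42 ± 0.25; adjusted p = 0.000295) were 2 of the 4 of 8 that rose at 6 h of RA, where 8.21% of all genes rose. Of these 4, CDKN1A, GDF15, GADD45A and MDM2, 0 were called without RA 6 h replicate 2, and 1, CDKN1A, was called under quantile normalization. With RA plus TNF against vehicle 3 of 7 p53 target genes rose and 1 fell, where 11.7% of all genes rose and 7.42% fell. GDF15 (3.19 ± 0.60, adjusted p = 0.000114) and CDKN1A (1.14 ± 0.17, adjusted p = 4.21e-06) were among those that rose. Of 3 glucocorticoid target genes FKBP5 rose with TNF (1.28 ± 0.15, adjusted p = 3.76e-08) and with RA plus TNF (1.03 ± 0.15, adjusted p = 1.17e-06). In these comparisons 6.69% and 11.7% of all genes rose.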

How the data were processed

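Total RNA of 33 wells was hybridised to Affymetrix HG-U133 Plus 2 arrays, and the submitters' processing notes name GCOS, with no version, as the signal software. The values the authors deposited are log2 signals, and the values themselves show that each array is centred on its median. Signals were recovered by taking the smallest value of each array as 1 unit; 100% of signals under 8 units then fell on steps of 0.1 units, within 0.006 units. Replicates are separate wells, per the labels' design text, so the spread is that between cultures of 1 line. For arrays, their number limits the precision.

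The 62 control probe sets were left out. Of the rest 41091 had 1 gene symbol, 1801 several and 11721 none; 41037 of the first matched RefSeq genes by gene number. Symbols come from GEO's platform annotation. Each gene took the probe set with the highest mean, and probe sets whose mean linear value lay under the median of all (0.882 at 40 h, 0.891 in the time course) were removed, which left 12393 and 12503 genes. All 7 genes passed at their brightest probe set, and of the 15 probe sets 10 passed at 40 h and 11 in the time course.

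limma 3.58.1 (R 4.3.3, version 1.17.8 of data.table) was run with lmFit and eBayes with an intensity trend and Benjamini-Hochberg adjustment over all genes tested. The 40 h fit held 21 arrays with the array set as a term (16 residual degrees of freedom). The time course held 17 arrays of array set 2 (12 residual degrees of freedom), with 8 vehicle wells (5 at 16 h, 3 at 40 h) and the 2 RA wells of 40 h, which are also in the 40 h fit. The fits were tested on data with known changes. The 7 genes, the 9 pathway lists, the 4 marker lists and the tests were chosen with earlier results of these data known. Named were the 7 genes, for each list up to 4 called genes of smallest adjusted p in a comparison, and for likeness the 3 genes of highest r. Promoters come from RefSeq (GRCh38.p14), where both genes matched. The comparison within array set 1 without vehicle replicate 1 was chosen after seeing the data.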

Additional observations from a re-analysis of the deposited data

Results flagged for a closer look

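Of 35 sets of wells (a gene in a group of 5 or 6 wells) 4 held a well far from the others by Dixon's criterion, where chance gives about 1 in 20. DDIT4 in vehicle replicate 1 of the 40 h harvest read 5.04, and the other 5 wells read 2.45 to 3.17. SESN1 in vehicle replicate 3 of the 40 h harvest read 2.72, and the others 3.42 to 3.75. TSC1 in the same well read 2.20, and the others 2.93 to 3.35. TSC1 in RA replicate 2 of the 40 h harvest read 2.55, and the others 3.30 to 3.46. These are log2 signals relative to the array median, and vehicle replicate 3 is the array with the highest recovered median, 45.2 units.

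The RA change of DDIT4L differed between wells with and without TNF, by -2.37 on the log2 scale in the interaction of the limma fit. The change was 1.06 without TNF, not called, and -1.31 with it, called. Within the sets the change without TNF was 0.45 in set 1, not called, and 1.97 in set 2, called. Additivity of the agents cannot be read from this interaction, because DDIT4L was not shown to be above background in several of the groups.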

How the results depend on the processing

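No change of the 7 genes that was called in the 40 h or time course fit turned its sign under any alternative run. DDIT4 changes that were not called over both sets did differ in sign between the sets. They were -0.72 in set 1 and 1.83 in set 2 with RA, and -0.68 and 1.35 with both agents, called in set 2 alone. Against TNF they were -2.17 in set 1, called, and 0.59 in set 2, not called. Raising signals under 16 units to 16 and vehicle wells of 1 harvest time altered no call. The DDIT4L interaction was called at -2.30 with quantile normalization and -2.40 with signals not centred. It was not called at -2.37 without the brightness filter, with the filter at 2 times the median, with all probe sets side by side or without the intensity trend, nor at -2.38 without the array set term, -1.99 within set 1, -2.94 within set 2 and -1.97 within set 1 without vehicle replicate 1. Leaving out 1 well gave -2.73 to -2.09. The count of the 7 genes called for the interaction went from 1 to 0 under those settings apart from the last, where it was 1 with DDIT4 (-2.19) called in place of DDIT4L, and was 0 to 1 over wells left out. For RA at 40 h it went from 2 to 1 without the trend, within set 1 and without the set term (1 to 3 over wells left out), and within set 1 without vehicle replicate 1 neither SESN3 (1.19) nor DEPTOR (-0.78) was called. In that setting SESN1 was not called with TNF (-0.98) or with both agents (-0.53). For RA plus TNF against TNF it went from 3 to 1 without the trend, within set 2 and without the set term (1 to 4 over wells left out). At 2 h it went from 1 to 2 with quantile normalization, signals not centred or array weights, and at 6 h from 2 to 1 under the same 3 (1 to 3 over wells left out). Without the trend the calls lost were DDIT4 with TNF (1.29), SESN3 with RA (0.98), DDIT4L (-1.31) and SESN3 (0.97) against TNF, and the interaction.

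Same-numbered wells of different groups showed little shared deviation. Over the genes their deviations had r of -0.0403 to 0.0365 in set 1 (18 pairs) and -0.0981 to 0.0788 in set 2 (12 pairs). Differently numbered wells had -0.0426 to 0.0488 in set 1 (36 pairs) and -0.0843 to 0.0981 in set 2 (18 pairs). In set 2 the RA, TNF and RA plus TNF groups hold 2 wells each, whose deviations mirror each other. The 2 kinds of pairs are therefore not independent there, and set 2 says little about pairing. With the replicate block the DDIT4L interaction was -2.41 and the interaction count 0, the 6 h count of the 7 genes 1, and the pathway genes called 1 at 2 h and 5 at 6 h; DDIT4 with TNF (1.15), DDIT4L against TNF (-1.31) and DDIT4L at 6 h (1.71) were not called. With quantile normalization and with signals not centred, pathway genes called were 10 and 8 for RA at 40 h in place of 4, 28 and 28 for TNF in place of 15, 30 and 32 for both against vehicle in place of 19, 20 and 19 against TNF in place of 10, and 26 and 25 against RA in place of 16. They were 2 and 2 for the interaction in place of 1, 6 and 8 at 6 h in place of 13, and 12 and 11 at 16 h in place of 4. The causes were not tested.

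The background counts over all genes moved by more than 1.5 times as follows, apart from the quantile splits given above. With signals not centred they were 991 for RA at 40 h (513), 2487 for TNF (1401), 1547 against TNF (903), 2362 against RA (1510), 159 for the interaction (53; 186 with quantile normalization), 486 at 6 h (1048), 1450 at 16 h (878) and 1240 at 40 h of the time course (641). Without the set term they were 217, 648, 1286 (2364 for both agents), 397, 792 and 7 for the interaction. Within set 1 they were 254, 647 and 1363 for RA, TNF and both (174, 568 and 1048 without vehicle replicate 1), and within set 2 882 for TNF, 778 against RA and 16 for the interaction. Array weights gave 82 for the interaction, 1688 at 2 h (108), 411 at 6 h and 2062 at 16 h; no trend gave 11, 69 and 554 for the first 3. The replicate block gave 52 at 2 h and 372 at 6 h, and vehicle of 1 harvest time 529 at 6 h and 549 at 16 h. Wells left out gave 28 to 34 for the interaction in 6 fits, 36 to 164 at 2 h, 149 to 1921 at 6 h, 444 to 1672 at 16 h and 261 at 40 h without RA replicate 5.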
